A study of Homo sapiens with 108 samples.

Results

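The mRNAs described here encode 10 calcium-dependent or membrane- and cytoskeleton-linked proteins: the S100 proteins S100A6, S100A10, S100A11 and S100A13, the annexins ANXA1, ANXA2, ANXA5 and ANXA6, the copine CPNE1, and the transgelin TAGLN2. They form a list of named genes from these protein families, and the list was selected on read levels in part, since CPNE1 and S100A11 stood out in BRCA1 against NT in these same libraries. Read counts were summed over the 3′ UTR intervals of each Ensembl gene, and 9 of the 10 genes had reads, out of 19761 genes counted. The exception was S100A6, whose single counted interval of 99 bases (hg38 chr1:153534600-153534698) held 0 reads in every library. A count of 0 among 1514606444 reads allows up to 0.00198 CPM, which covers counting error only.

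The libraries came from HEK293T, a transformed human embryonic kidney line. Cells received a lentiviral short hairpin RNA (shRNA) and were selected with puromycin. The hairpin was directed at ZMAT3, ZMAT5, ZNF706, ZFP36L1, MAZ, PHF7, CNOT4 or BRCA1, and the control was a non-targeting hairpin (NT). All cells, NT included, grew in 10 µM 4-thiouridine (4SU) for 24 h with fresh medium every 8 h, and were then chased in 1 mM uridine for 0, 2, 4 or 8 h. Alkylated 4SU is read as C, so T>C conversions in a QuantSeq 3′ read mark RNA made before the chase (SLAM-seq). Each of the 9 hairpins (arms) had 3 biological replicates at each of 4 times, which gives 12 libraries per arm. The hairpin sequences and the number of hairpins per target are not given in the labels, so an arm stands for its hairpin in a cell pool.

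S100 proteins are small EF-hand calcium sensors that work as dimers and bind other proteins. Annexins bind acidic phospholipids when calcium rises and organise membrane domains, vesicle traffic and membrane repair. S100A10 is the usual partner of ANXA2, which it joins in a heterotetramer at the plasma membrane, and S100A11 is a partner of ANXA1. Copines carry C2 domains that bind membranes in response to calcium, and TAGLN2 is a calponin-family protein that binds actin filaments.

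Before the members, a few facts about the libraries are needed. Reads in 3′ UTRs ranged from 63659 to 30750027 with a median of 14870063, and the shallowest was replicate 3 of PHF7 at 8 h. Depth differed by arm, with a median of 10187470 in NT and 8901564 in BRCA1. Medians were 17141085 (ZMAT5) to 21007825 (ZNF706) in ZMAT5, ZMAT3, MAZ, PHF7 and ZNF706. They were 6158870.5 with the ZFP36L1 label and 4529224 in CNOT4. The part of depth in the level differences was not tested. The targeted mRNA stood at 12.2% of NT in MAZ, 24.9% in ZMAT3, 10.4% in ZMAT5 and 49.0% in ZNF706, all past the test. It stood at 53.5% in BRCA1 and 23.8% in PHF7 without passing, and at 97.3% in CNOT4. In the libraries labelled ZFP36L1 the ZFP36L1 mRNA was higher than in NT, at 174.1% (adjusted p = 0.00243), so these are called by their label throughout. A read covered 25.9 to 33.0 reference T positions in the libraries labelled ZFP36L1 and 27.7 to 34.0 in CNOT4, against 37.1 to 37.8 in NT. The 3 CNOT4 libraries of 8 h stood apart from the rest of that arm. Their file headers say pulse-chase where the others say chase, 5.82% to 5.91% of their reads were multimapped against 9.34% to 11.9% in the other CNOT4 libraries, and a read covered 32.5 to 34.0 T positions against 27.7 to 31.3. The part of this in the CNOT4 levels was not tested beyond leaving these libraries out. Among the 6 fixed HEK293 markers none was at 0 in any arm. VIM was called higher in ZMAT5 (log2 0.63, adjusted p = 5.41e-10), PHF7 (0.67) and CNOT4 (0.44), KRT18 higher with the ZFP36L1 label (1.12), and NEFM lower in CNOT4 (-2.29) and with the ZFP36L1 label (-0.83) and higher in MAZ (0.74). The 5 blood cell markers summed to at most 7.22 in any library, as normalised CPM (counts per 1e+06 reads in 3′ UTRs), and the 5 endothelial and muscle markers to at most 13.3. The 6 fibroblast markers summed to at most 38.4 outside PHF7 and to at most 147.2 in PHF7. PHF7 holds the shallowest library, in which 1 read makes 8.66 normalised CPM, so the highest PHF7 sum is not read as a trait of that arm. Of the fibroblast markers, COL3A1 was called higher in MAZ (mean 1.06) and ZMAT5 (1.64), from 0 in NT, and LUM in MAZ (1.07). The part of these markers in the members' levels was not tested.

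Promoter sequences are shown for S100A10, S100A11, S100A13 and TAGLN2, because these are the members called in the MAZ arm and MAZ is a zinc finger protein known to bind G-rich DNA. Each line gives the 250 bases before a transcript start from RefSeq (GRCh38.p14), 5′ to 3′ on the gene's strand. S100A13 and TAGLN2 have several annotated starts, and the start shown for each holds the first motif. Another S100A13 start, not shown, holds it too. Capitals mark the motif GGGAGGG, the GC box letters GGGCGG, and the AP-1 letters TGAGTCA, each in either orientation, and matches to the first pair of motifs can share bases.
S100A10, chr1:151993860-151994109, minus strand: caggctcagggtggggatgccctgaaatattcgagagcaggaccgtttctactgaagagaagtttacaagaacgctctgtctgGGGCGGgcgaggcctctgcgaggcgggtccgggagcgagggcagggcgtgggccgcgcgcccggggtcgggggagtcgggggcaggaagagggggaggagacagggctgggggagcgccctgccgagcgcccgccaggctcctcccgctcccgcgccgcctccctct
S100A11, chr1:152037005-152037254, minus strand: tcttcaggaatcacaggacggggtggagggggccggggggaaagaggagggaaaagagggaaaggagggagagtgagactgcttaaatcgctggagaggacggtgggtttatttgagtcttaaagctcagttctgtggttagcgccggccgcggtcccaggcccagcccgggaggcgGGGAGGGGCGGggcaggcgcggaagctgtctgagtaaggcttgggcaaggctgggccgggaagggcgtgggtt
S100A13, chr1:153634362-153634611, minus strand: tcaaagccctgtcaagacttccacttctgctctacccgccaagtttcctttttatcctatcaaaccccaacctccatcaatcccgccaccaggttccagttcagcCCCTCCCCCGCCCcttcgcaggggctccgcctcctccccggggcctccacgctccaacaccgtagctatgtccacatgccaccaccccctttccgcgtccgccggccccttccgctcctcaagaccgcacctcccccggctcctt
TAGLN2, chr1:159924596-159924845, minus strand: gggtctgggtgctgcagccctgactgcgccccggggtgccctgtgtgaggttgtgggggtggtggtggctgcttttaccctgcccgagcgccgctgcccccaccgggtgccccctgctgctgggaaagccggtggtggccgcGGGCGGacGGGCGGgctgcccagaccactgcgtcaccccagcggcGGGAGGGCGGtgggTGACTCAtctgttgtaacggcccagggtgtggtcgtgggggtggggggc

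The 10 members have 15 annotated starts. On either strand GGGAGGG occurred at 4 of these starts (of S100A11, S100A13 and TAGLN2, and not of S100A10), and in 24.7% of 35116 RefSeq promoters of this length. GGGCGG occurred at 9 of the 15 starts, that of S100A10 among them, and in 42.6% of all promoters. The other letters searched were TATAAA (10.7% of all promoters), CCAAT (32.0%), TGAGTCA (4.2%), CACGTG (6.34%) and CATTCC (11.9%). These are descriptions of the letters in the windows and not binding sites. CPNE1 had none of the 7 motifs in its window.

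The other sequences that bear on a readout lie in the counted 3′ UTR intervals, since AU-rich pentamers are what ZFP36-family proteins are known to contact. ATTTA was found 3 times in the 695-base TAGLN2 interval, 2 times in the ANXA2 interval and 4 times in the ANXA5 interval, and not in the main interval of the other 7 members. TAGLN2 and ANXA2 are shown because they moved in opposite directions in the libraries labelled ZFP36L1. Each line is a 30-base window of hg38 on the gene's strand, with the pentamer it was drawn for in capitals. The ANXA2 windows overlap, and each also holds the other's pentamer in lower case.
TAGLN2, chr1:159918532-159918561, minus strand: cctgggaccaaaATTTAggggcctcagtcc
TAGLN2, chr1:159918330-159918359, minus strand: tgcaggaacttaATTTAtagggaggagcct
TAGLN2, chr1:159918122-159918151, minus strand: atgagtttgttgATTTAaataaagaatttg
ANXA2, chr15:60347174-60347203, minus strand: ccaagtgtcgctATTTAagttaaatttaaa
ANXA2, chr15:60347163-60347192, minus strand: tatttaagttaaATTTAaatgaaataaaat

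The pentamer is common. It was present in the longest counted interval of 74.7% of 12371 genes with at least 100 NT reads, where the median interval was 1472 bases long. The longer TATTTAT was in 0 of the members' main intervals and in 36.3% of those genes.

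In NT cells the members spanned a wide range of abundance, given here as normalised CPM. These are 3′ tag counts, with a tag expected per molecule whatever its length, so levels of different genes were compared without a length correction. TAGLN2 was the most abundant, with a lowest, median and highest value over 12 NT libraries of 405, 502 and 631. Its lowest library lay above the highest NT library of S100A10 (109, 148 and 204). CPNE1 (94.8, 125 and 281), ANXA5 (66.1, 130 and 296) and S100A11 (103, 132 and 165) overlapped with S100A10 and with each other. ANXA2 (30.9, 70.3 and 120), S100A13 (45.0, 59.1 and 84.5) and ANXA6 (23.3, 49.0 and 77.6) made an overlapping lower tier. ANXA1 was near the limit of detection in NT, with 299 reads over 12 libraries and a highest value of 9.03. Fewer cells that express a gene and less RNA per cell cannot be told apart in these bulk libraries.

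**Figure D1:**
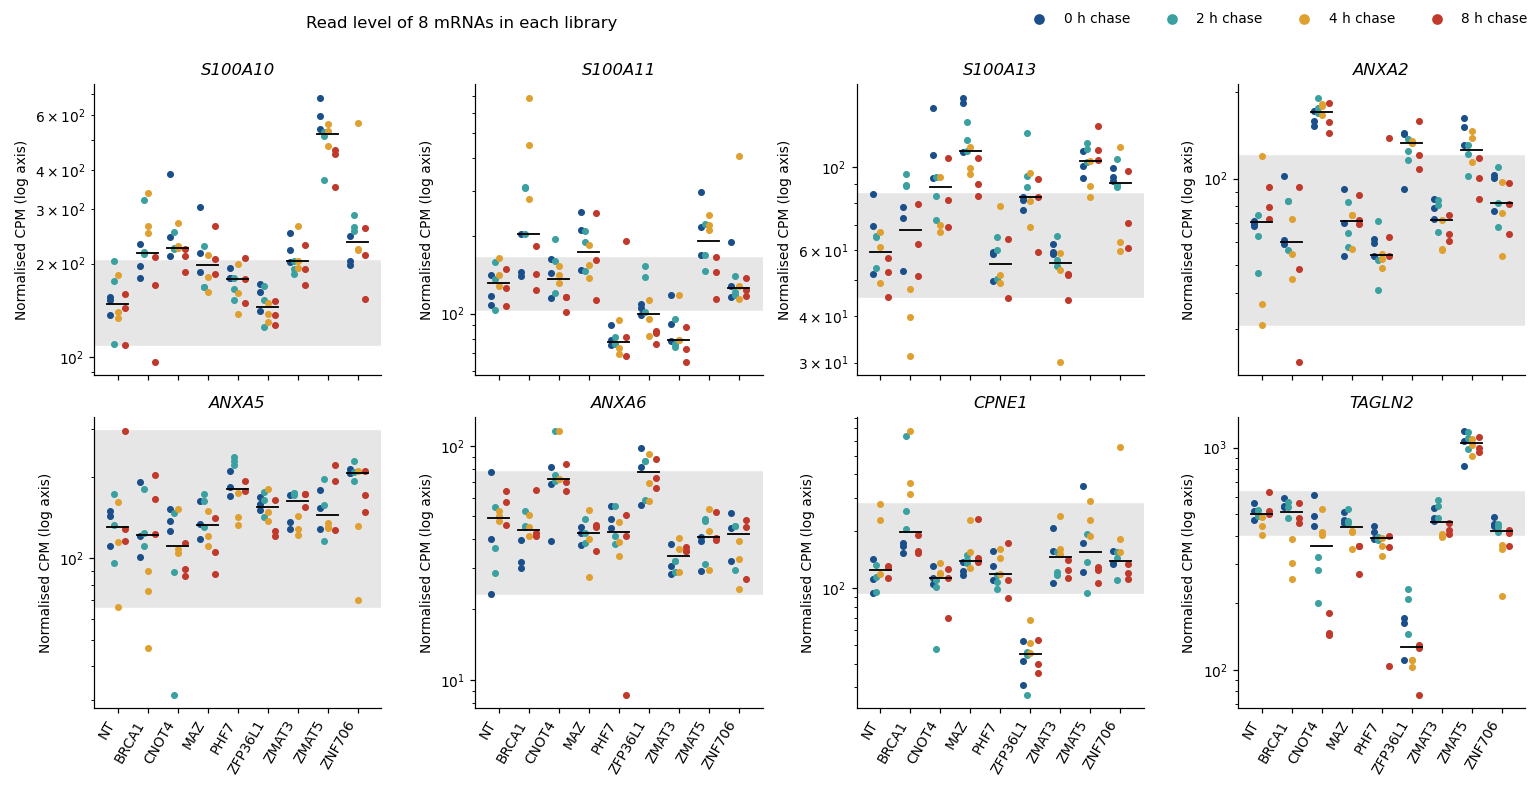
Normalised CPM on a log axis for 8 members by arm (ANXA1 and S100A6 are not drawn), with each point 1 library coloured by chase time, black lines medians of 12 and grey bands the NT range. S100A10 and TAGLN2 points of ZMAT5 lie above all their NT points, and CPNE1 and TAGLN2 points of the libraries labelled ZFP36L1 lie below all of theirs. The 2 values at 0 in replicate 3 of PHF7 at 8 h (S100A13 and ANXA5) cannot be drawn on this axis.

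Each arm was compared with NT by edgeR's quasi-likelihood test across all genes, as an arm difference common to the 4 chase times, with chase time as a factor. Calls needed a fold over 1.2 besides a p under 0.05 after Benjamini-Hochberg adjustment over all genes. The same 12 NT libraries serve as the control in every comparison, so results in different arms are not independent of each other. CPNE1 and S100A11 were chosen in part for lying above these NT libraries in BRCA1. That choice can favour a call of higher for them in other arms, and S100A11 is among the members called higher in ZMAT5 and MAZ. In ZMAT5, 5 of 9 tested members were called higher and 0 lower, where 5.3% of all tested genes were called higher and 4.39% lower. In CNOT4 the counts were 5 higher and 1 lower, against 12.6% and 14.1% of all genes. They were 3 and 3 in the libraries labelled ZFP36L1, against 20.9% and 18.9%. In MAZ they were 3 and 1 (4.78% and 3.67% of all genes), and in ZMAT3 they were 2 and 2 (4.81% and 4.95%). In ZNF706 they were 2 and 1 (2.9% and 2.38%), and in PHF7 they were 0 and 2 (2.84% and 4.64%). The median log2 difference of the 9 members was largest in ZMAT5, at 0.80 against 0.06 over all genes, and second in CNOT4, at 0.58 against 0.04. It was 0.14 against 0.13 in the libraries labelled ZFP36L1.

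**Figure D2:**
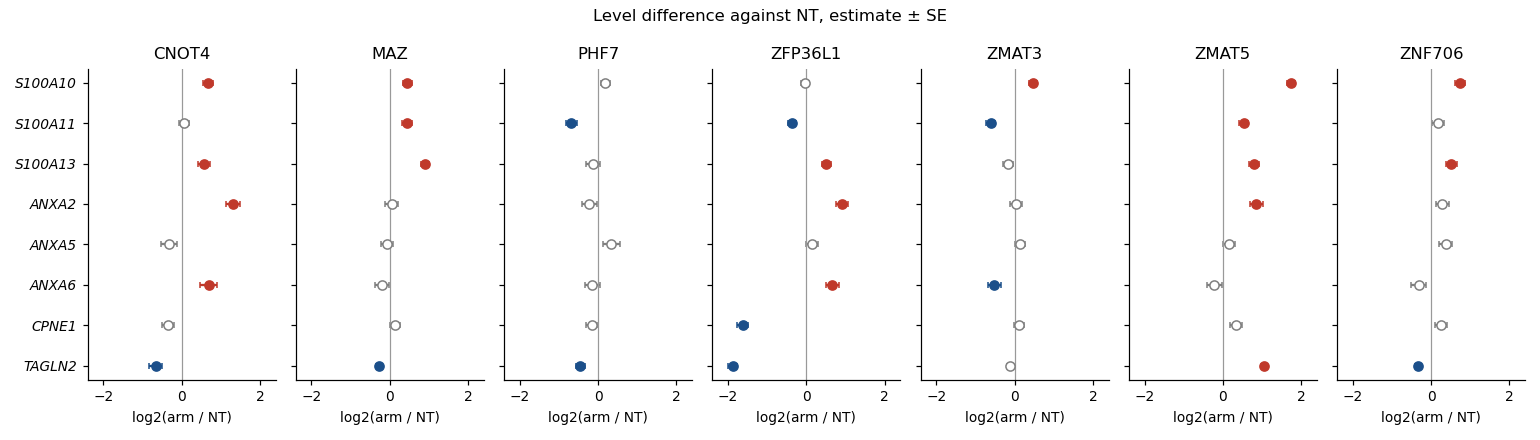
Log2 level difference against NT with its standard error for 8 members in the 7 arms other than BRCA1, filled where called (red higher, blue lower) and open where not. ANXA1, with far larger errors, is not drawn. S100A10 and S100A13 are called in the higher direction in 5 arms each, and TAGLN2 in the lower direction in 5 arms and in the higher direction in ZMAT5.

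S100A10, the ANXA2 partner, was called higher in 5 of 7 arms and lower in none. In ZMAT5 its lowest, median and highest values were 352, 523 and 682. All 12 libraries lay above the highest NT library, and the difference was 1.74 on the log2 scale (SE 0.10), or 3.34-fold (adjusted p = 1.66e-15). In CNOT4 it ran from 188 to 389 with 11 libraries above NT (log2 0.68, SE 0.12, adjusted p = 6.64e-05). It was also called in ZNF706 (log2 0.74, 9 libraries above NT, adjusted p = 2.78e-04), ZMAT3 (0.47, 4 libraries, adjusted p = 8.86e-04) and MAZ (0.45, 6 libraries, adjusted p = 0.00568). Without the 8 h libraries the MAZ difference was 0.38 and the call was lost (adjusted p = 0.0607). With the ZFP36L1 label its level lay within the NT range in all 12 (125 to 172).

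ANXA2, the phospholipid-binding subunit of the S100A10 complex, was called higher in 3 of 7 arms. In CNOT4 its values were 144, 170 and 191, all 12 above the highest NT library at 120 (log2 1.31, SE 0.17, adjusted p = 5.64e-07). With the ZFP36L1 label they were 91.9, 132 and 159, with 9 above NT (log2 0.91, SE 0.15, adjusted p = 9.82e-06). In ZMAT5 they were 84.9, 126 and 162, with 7 above NT (log2 0.86, SE 0.16, adjusted p = 3.08e-04). Both partners were called higher in CNOT4 and ZMAT5. With the ZFP36L1 label ANXA2 was called and S100A10 was not, and in MAZ, ZMAT3 and ZNF706 S100A10 was called and ANXA2 was not. Whether the 2 genes differ from each other in these arms was not tested. The CNOT4 and ZFP36L1-labelled libraries also had fewer T positions per read than NT, and the part of that in these levels was not tested.

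S100A11, which binds ANXA1 and other annexins, went both ways. It was chosen in part on its BRCA1 difference from these same NT libraries, so its tests in other arms are not free of that choice. It was called higher in ZMAT5 (114, 191 and 297; log2 0.53, adjusted p = 0.0017) and MAZ (113, 173 and 248; log2 0.44, adjusted p = 0.0135). It was called lower in ZMAT3 (65.1, 79.1 and 119), where 10 of 12 libraries lay below the lowest NT library (log2 -0.62, SE 0.11, adjusted p = 1.62e-04). In PHF7 it was also called lower (log2 -0.68, SE 0.14, adjusted p = 0.00124), with 11 of 12 libraries below NT. The remaining PHF7 library, at 190.5, was the shallowest of the series, and without it the difference was -0.76 (adjusted p = 1.47e-06). Upper-quartile scaling gave -0.46 in PHF7 and ended the call (adjusted p = 0.439). With the ZFP36L1 label the difference was -0.36 (adjusted p = 0.0067), with 7 libraries below NT, and without the 8 h libraries it was -0.26 (adjusted p = 0.103).

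S100A13, a calcium and copper binding protein known for its part in the unconventional release of growth factors, was called higher in 5 of 7 arms and lower in none. In MAZ its values were 83.9, 110 and 153, with 11 of 12 above the NT range (log2 0.90, SE 0.11, adjusted p = 2.96e-07). In ZMAT5 they were 83.0, 104 and 129, also with 11 above NT (log2 0.80, SE 0.12, adjusted p = 1.36e-05). The CNOT4, ZFP36L1-labelled and ZNF706 differences were 0.58, 0.51 and 0.51, with 6, 5 and 8 libraries above NT. Without the 8 h libraries the ZNF706 difference was 0.50 (adjusted p = 0.0847). The gene was read from an interval of only 98 bases, in which 16.3% of bases are T.

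Of the annexins other than ANXA2, ANXA1 carries the largest differences and the least data. ANXA1 is a glucocorticoid-induced annexin with anti-inflammatory action outside the cell. In CNOT4 its values were 0, 14.8 and 37.7, with 10 of 12 libraries above the NT range (log2 4.07, SE 1.04, adjusted p = 0.0034), and it was called higher in ZMAT3 as well (log2 2.84, SE 0.88, adjusted p = 0.032, 4 libraries above NT). As 4 NT libraries held 0 reads, these log2 values depend on the small count the fit adds. Without the 8 h libraries both calls were lost, at 3.03 in CNOT4 (adjusted p = 0.0537) and 1.93 in ZMAT3 (adjusted p = 0.192).

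ANXA6, a large annexin with a double core, was higher in CNOT4 (39.1, 72.4 and 116; log2 0.69, adjusted p = 0.013) and in the libraries labelled ZFP36L1 (56.0, 77.0 and 97.7; log2 0.67, adjusted p = 0.00109). It was lower in ZMAT3 (28.3, 33.9 and 40.3; log2 -0.51, adjusted p = 0.0425), although all 12 of those libraries lay within the NT range. With the replicate number as a block the ZMAT3 call was lost (-0.49, adjusted p = 0.056), as it was with upper-quartile scaling (adjusted p = 0.0536) and with no low-count filter (adjusted p = 0.0842). ANXA5, the phosphatidylserine binder used to stain dying cells, was called in 0 of 7 arms by edgeR and DESeq2, and in 1 arm at an unadjusted p under 0.05. Without the shallowest PHF7 library, which held 0 ANXA5 reads, its PHF7 difference was 0.44 (adjusted p = 0.0423). Without the 8 h libraries the ANXA5 difference in PHF7 was 0.54 (adjusted p = 0.00901). Other settings called it higher as well. With no low-count filter this held in ZNF706 (0.38, adjusted p = 0.0282). Without replicate 1 it held in ZMAT5 (0.53, adjusted p = 0.0242), in ZMAT3 (0.46, adjusted p = 0.0313) and with the ZFP36L1 label (0.46, adjusted p = 0.0127).

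TAGLN2 and CPNE1 showed the largest falls. In the libraries labelled ZFP36L1 TAGLN2 values were 77.3, 127 and 232, all 12 below the lowest NT library at 405, which is 27.1% of NT (log2 -1.88, SE 0.11, adjusted p = 5.25e-16). CPNE1 values there were 27.5, 45.2 and 67.8, all 12 below the lowest NT library at 94.8, or 32.5% of NT (log2 -1.62, SE 0.14, adjusted p = 9.11e-12). Reads of these libraries also fell differently along both genes. A TAGLN2 read covered 21.1 to 24.4 T positions there and 32.8 to 35.2 in NT. The second CPNE1 interval held 0.75% ± 0.91 (SD, n = 12) of CPNE1 reads there and 12.57% ± 6.13 in NT. CNOT4 reads were shifted too, at 21.0 to 29.0 T positions for TAGLN2 and 0.62% ± 0.81 for that CPNE1 interval. The part of these shifts in the level differences of either arm was not tested.

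In the opposite direction, TAGLN2 in ZMAT5 ran at 824, 1049 and 1193, with all 12 libraries above the highest NT library at 631 (log2 1.05, SE 0.07, adjusted p = 1.96e-14). It was called lower in 4 further arms with smaller differences. In PHF7 it was -0.45 (adjusted p = 0.00875, 10 libraries below NT). Upper-quartile scaling (-0.29, adjusted p = 0.147) and leaving out the 4 h libraries (-0.50, adjusted p = 0.0545) each ended that call. In ZNF706 it was -0.35 (adjusted p = 0.00408, 4 libraries below), and without the 8 h libraries -0.30 (adjusted p = 0.0678). In MAZ it was -0.27 (adjusted p = 0.0244), and without the 8 h libraries -0.11 (adjusted p = 0.375). In CNOT4 the difference was -0.66 (adjusted p = 0.00362). The CNOT4 libraries of 8 h (146, 144 and 179) and of 2 h (281, 321 and 200) all lay below the lowest NT library at 405. Those of 0 h (491, 615 and 445) did not, and of those of 4 h (403, 417 and 531) only replicate 1 did. Without the 8 h libraries, which stood apart as given above, the difference was -0.29 and the call was lost (adjusted p = 0.157). Outside the libraries labelled ZFP36L1, CPNE1 was called in no tested arm by edgeR with all libraries, with an unadjusted p under 0.05 in 2. Without replicate 3 it was called lower in CNOT4 (-0.38, adjusted p = 0.0477).

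The BRCA1 arm guided the choice of members, so its values are given as a description with no test. CPNE1 was 1.90-fold NT (log2 0.93, SE 0.18), S100A11 1.80-fold (0.85, SE 0.16) and S100A10 1.46-fold (0.54, SE 0.13). CPNE1 and S100A11 were past the limits used in the other arms, beside 0.0411% of all genes in each direction, and since this contrast chose them nothing is read from that count. The high values lay at 2 h and 4 h. CPNE1 was 167, 153 and 174 in the 3 replicates at 0 h, 258, 638 and 207 at 2 h, 683, 362 and 314 at 4 h, and 157, 154 and 191 at 8 h. S100A11 was 204, 140 and 144 at 0 h, 310, 308 and 204 at 2 h, 689, 277 and 450 at 4 h, and 183, 124 and 142 at 8 h. Without the 4 h libraries the log2 differences were 0.86 for CPNE1 and 0.56 for S100A11. In the 0 h libraries alone they were 0.51 and 0.42. NT itself held its highest CPNE1 values at 4 h, up to 281. In the BRCA1 libraries of 4 h TAGLN2 was low, at 301, 387 and 255, and S100A13 was 39.7, 47.1 and 31.2.

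Both CPNE1 and S100A11 lay above their NT ranges in 4 BRCA1 libraries, 2 ZMAT5 libraries and 1 ZNF706 library, and in none of the other arms. The ZNF706 library was replicate 3 at 4 h, with CPNE1 at 560, S100A11 at 407 and S100A10 at 566, and with TAGLN2 low at 215. Without that library the 3 ZNF706 calls (S100A10, S100A13 and TAGLN2) kept their direction and passed the test. The share of mapped reads in counted intervals also differed between libraries. Per 1e+06 mapped reads it was 570384 to 622064 in the 4 BRCA1 libraries and 489138 to 531372 in the other BRCA1 libraries. The ZNF706 library was at 601173, the 2 ZMAT5 libraries at 565352 and 551073, and NT at 480478 to 533323. In MAZ, replicate 1 at 8 h was at 573122, with S100A11 at 246 above its NT range and CPNE1 at 233 inside its own. Replicate 3 of ZMAT5 at 4 h was at 560579, with S100A11 at 240 above its NT range and CPNE1 at 230 inside. Replicate 2 of PHF7 at 0 h was at 561801, with CPNE1 at 157 inside its NT range and S100A11 at 79.1 below its own. The part of this share in the levels was not tested.

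**Figure D3:**
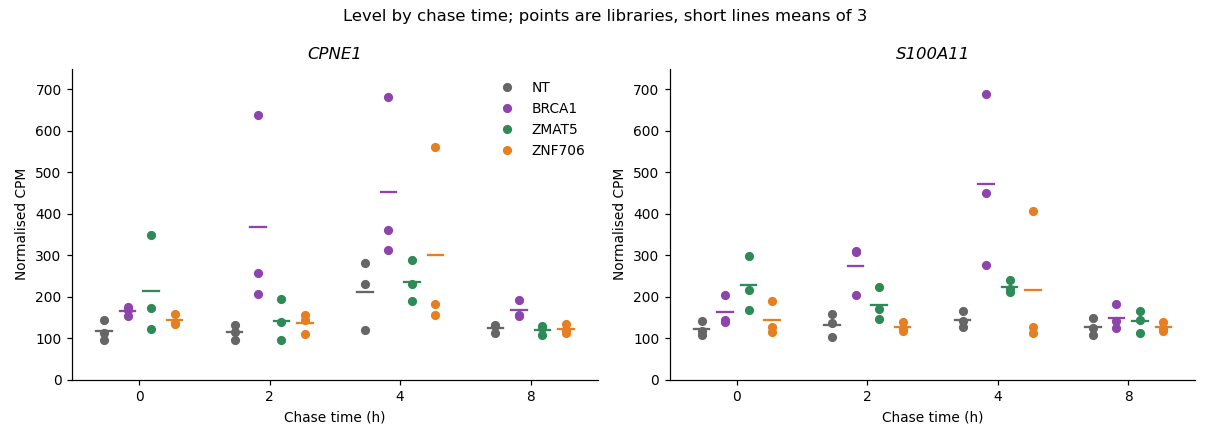
Normalised CPM of CPNE1 (left) and S100A11 (right) against chase time in hours in NT, BRCA1, ZMAT5 and ZNF706, with points as libraries and short lines the means of 3. BRCA1 libraries stand high at 2 h and 4 h and lower at 0 h and 8 h, where their CPNE1 values (153 to 174 and 154 to 191) still lie above the NT libraries of the same time (94.8 to 143 and 114 to 131), and a single ZNF706 library stands high in both plots at 4 h.

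The T>C label was measured as conversions per 100 covered T positions. At 0 h the members in NT ran from 0.69% (S100A13) to 1.65% (ANXA5), against 1.75% ± 0.08 (SD, n = 3) over all reads pooled, leaving out ANXA1, which had too few reads. No library without 4SU is among the samples, so the share of these rates that is sequencing error or variants was not tested. At 0 h in MAZ, 4 of 8 tested members were called higher than NT and 0 lower, where 32.9% of all genes were called higher and 0% lower (edgeR's quasi-likelihood test with the T positions as offset). They were ANXA2 (log2 1.30, SE 0.34), CPNE1 (1.14, SE 0.33), TAGLN2 (1.08, SE 0.17) and S100A10 (1.03, SE 0.25). In ZMAT3, S100A10 (0.95, SE 0.29) and TAGLN2 (0.94, SE 0.21) were called higher and 0 lower, against 25.5% and 0% of all genes. With the replicate number as a block, ANXA2 in MAZ (adjusted p = 0.0612) and S100A10 in ZMAT3 (adjusted p = 0.0656) did not pass. The pooled rate was higher in both arms, at 2.96% in MAZ and 3.03% in ZMAT3, and relative to it 0 members were called in either.

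In the other arms 0 of 8 members were called at 0 h by the same test, with an unadjusted p under 0.05 for 2 in PHF7, 1 in ZNF706, 1 in the ZFP36L1-labelled libraries and 0 in CNOT4 and ZMAT5. All-gene shares called higher were 0% in BRCA1, CNOT4 and ZNF706, 0.131% in PHF7, 0.0368% in the libraries labelled ZFP36L1 and 0.0606% in ZMAT5. The shares called lower were 2.45% in ZMAT5 and 0% in the rest.

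Over the chase the members kept more of their label than the median gene did. In NT the median gene kept 20.6% of its 0 h label at 8 h, and the 8 members with enough reads kept 40.6% (CPNE1) to 115.2% (S100A13). Given as a description with no test, all 8 measured members (9 of 9 in CNOT4, where ANXA1 could be measured) lay above the all-gene median of their arm in the other 8 arms too. Members kept 35.5% to 70.6% in the libraries labelled ZFP36L1, against 16.02% for the median gene. Values over 100% come from rates that were no lower at 8 h than at 0 h within the spread of replicates.

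**Figure D4:**
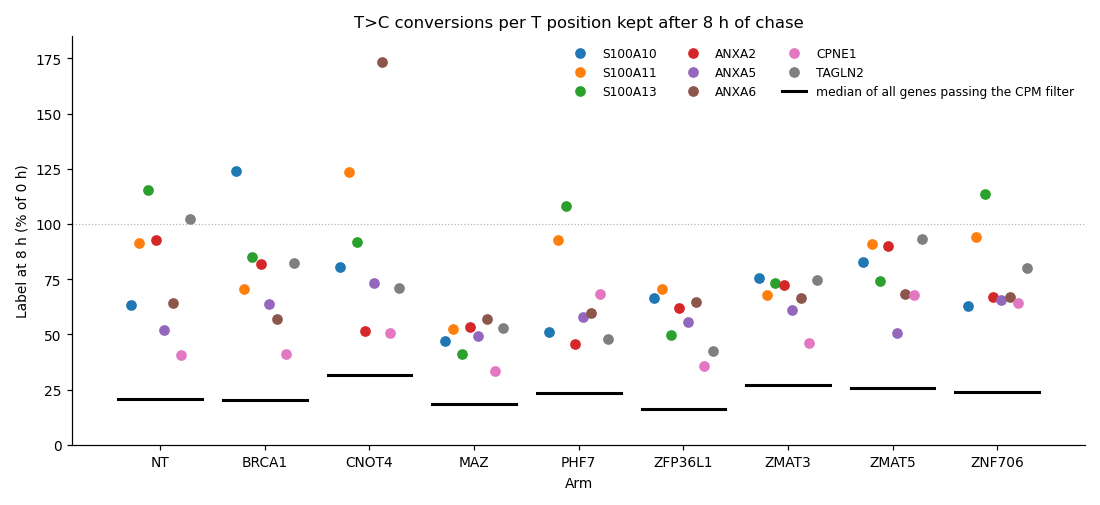
Percent of the 0 h T>C rate left at 8 h for 8 members (coloured points) in each arm, with a black bar at the all-gene median of the arm and a dotted line where the rates at both times are equal. The 8 members lie above the bar in every arm.

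TAGLN2 had the best-measured label, with 143680 to 216761 covered T positions in each NT library. Its NT rate was 1.13% ± 0.18 at 0 h, 1.13% ± 0.15 at 2 h, 1.14% ± 0.20 at 4 h and 1.16% ± 0.22 at 8 h (SD, n = 3), so no loss was measurable in 8 h. Pooled over all NT reads the rate was 1.75% at 0 h and 0.61% at 8 h. The TAGLN2 rate of the libraries labelled ZFP36L1 was 1.57% to 1.67% at 0 h and 0.61% to 0.81% at 8 h, with no overlap between these times. A TAGLN2 read covered fewer T positions there than in NT, as given above, and the part of that in the rate was not tested. The loss was 0.114 per h faster than in NT (SE 0.03, natural log scale), with an unadjusted p of 9.88e-05 and an adjusted p of 0.0533 from edgeR's test of the difference in slope. This did not pass, and with a stricter minimum of 20 CPM it did (adjusted p = 0.0464). In MAZ the slope of TAGLN2 differed by 0.08 per h (unadjusted p = 0.0107, adjusted p = 0.573).

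Across the members, 0 of 8 were called for a difference in label loss in any arm by edgeR or by limma. The unadjusted p was under 0.05 for TAGLN2 in the ZFP36L1-labelled libraries and in MAZ, and for no other member in the 7 tested arms. Few genes were called at all. The share was 0% in BRCA1, 0.0579% in CNOT4, 0.0402% in MAZ, 0.308% in PHF7, 0.0815% with the ZFP36L1 label, 0.574% in ZMAT3, 0.0684% in ZMAT5 and 0.0137% in ZNF706. The large level differences of S100A10 in ZMAT5 and ANXA2 in CNOT4 came with no measurable difference in label loss at this depth, which does not show that the losses were alike.

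**Figure D5:**
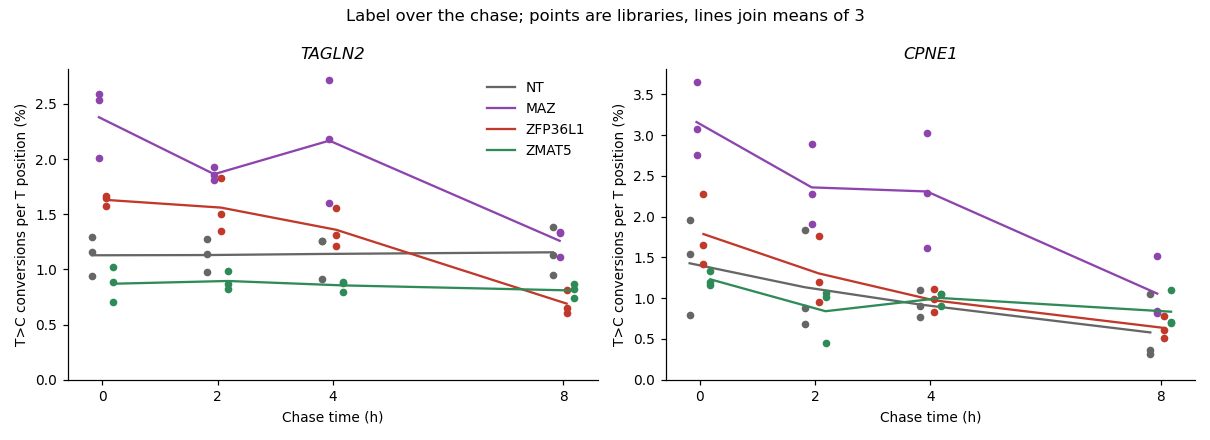
T>C rate as percent of covered T positions against chase time in hours for TAGLN2 (left) and CPNE1 (right) in NT, MAZ, ZMAT5 and the libraries labelled ZFP36L1, with points as libraries and lines joining means of 3. The TAGLN2 line is level in NT, near 1.13% to 1.16%, and goes from 1.63% to 0.69% with the ZFP36L1 label.

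A first-order decay curve with R2 above 0.6 could be fitted for 32 of the member and arm pairs. In NT it was fitted for CPNE1 (6.19 h) and ANXA6 (13.78 h), where the all-gene median was 3.27 h. CPNE1 had the shortest fitted half-life of the members in each of the 7 arms where it was fitted except PHF7, where those of ANXA2, TAGLN2 and ANXA5 were shorter. That of CPNE1 was 5.60 h in BRCA1, 7.45 h in CNOT4, 5.95 h in MAZ, 12.1 h in PHF7, 4.89 h in the libraries labelled ZFP36L1 and 7.70 h in ZMAT3. The PHF7 curves include the shallowest library, which held 20 CPNE1 reads and 0 conversions of ANXA2 and TAGLN2. CPNE1 replicate curves in the libraries labelled ZFP36L1 ranged from 4.01 to 6.24 h, and the 2 that could be fitted in NT gave 2.41 and 5.55 h. TAGLN2 gave no half-life in NT. It was 8.84 h in the libraries labelled ZFP36L1 (replicates 7.12 to 10.37 h), 10.46 h in MAZ, 11.15 h in PHF7 (21.76 h without replicate 3, to which the shallowest library belongs), 19.78 h in ZMAT3 and 22.87 h in ZNF706. Half-lives beyond the 8 h chase are extrapolated.

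Most other genes of the same families did not pass the count filter in these cells. Of 17 further genes with S100 names 2 or 3 passed the count filter in an arm, of 9 further annexins 4, and of 8 further copines 4. In ZMAT5 the annexin list had 1 gene called higher and 1 lower of 4 tested, against 5.3% and 4.39% of all genes. The higher was ANXA3 (log2 5.10, SE 1.36, from 0.945 ± 1.81 in NT to 10.8 ± 7.01, SD, n = 12) and the lower ANXA11 (-0.61, adjusted p = 0.00713). S100A2 was called higher in ZMAT5 from a level near 0 (log2 5.87, SE 1.68, adjusted p = 0.0189). It was called higher in MAZ (5.06, adjusted p = 0.024) and ZMAT3 (4.21, adjusted p = 0.0314) as well. ANXA11 was also called lower in MAZ (-0.495, adjusted p = 0.0221). ANXA3 was called higher in the libraries labelled ZFP36L1 too (log2 3.65, SE 1.33, adjusted p = 0.0272, mean 3.17). ANXA7 (log2 -0.53) and the copine CPNE8 (from 20.0 in NT to 6.97) were called lower in those libraries.

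Among the 3 tested relatives of TAGLN2, the actin-binding calponin CNN2 was called higher in CNOT4 (mean 44.1 in NT and 110.6 in CNOT4, log2 1.30, SE 0.21, adjusted p = 1.53e-05). It was also called higher in ZMAT5 (0.75, adjusted p = 0.0041) and with the ZFP36L1 label (0.47, adjusted p = 0.0172). CNN3 was called lower in MAZ (-0.51, adjusted p = 0.00858) and with the ZFP36L1 label (-0.33, adjusted p = 0.0318). The all-gene shares called in these arms are given above. Of the binding partners of annexins and S100 proteins, 9 were tested in the libraries labelled ZFP36L1, where 2 were called higher and 1 lower, against 20.9% and 18.9% of all genes. They were the glycolytic enzyme GAPDH (mean 840.2 in NT and 2369.8), the co-chaperone SUGT1 (log2 0.51) and the S100A6-binding protein CACYBP (-0.80). The 16 calmodulins and other EF-hand genes had 3 called higher and 10 lower in the same libraries, against those same shares of all genes, among them EFHD2 (log2 -1.76) and sorcin, SRI (-0.79). In CNOT4 they had 3 higher and 7 lower, CALM2 (-0.74) among the latter, against 12.6% and 14.1% of all genes. The median of this list was -0.46 in the libraries labelled ZFP36L1 and -0.40 in CNOT4, against 0.13 and 0.04 over all genes. In ZMAT5 it was -0.14, with 3 called higher and 1 lower, against 5.3% and 4.39% of all genes.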

How the data were processed

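SLAM-seq libraries of HEK293T cells (9 arms, 4 times, 3 replicates) were analysed. Per the file headers and methods, the authors aligned reads to hg38 with SlamDunk 0.4.3, kept multimapping reads, and deposited counts of reads, covered T positions and T>C conversions for 69079 3′ UTR intervals. CPM values deposited by the authors, scaled to all mapped reads, were not tested. Counts were summed per gene, and GENCODE 44 named 19501 of 19761 ids. Groups followed the sample titles. Levels were tested on counts with edgeR 4.0.16 (quasi-likelihood, TMM scaling, arm plus chase time as a factor). An arm difference that changes with chase time was not modelled. Label was tested with covered T positions as offset, at a CPM minimum of 5, and half-lives followed the methods (R2 over 0.6, at least 2 replicates). Scripts were tested on simulated data. DESeq2 1.42.0, limma 3.58.1 (pseudocount 0.5), another scaling, filters, the replicate block and left-out libraries were alternatives. Members and lists were chosen with earlier results of these data known. All members are named, and of each other list at most 3 genes called outside BRCA1 with the lowest adjusted p. The p-values measure the spread between these samples. Intervals at 0 counts use 3 counts and cover counting error only.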

Additional observations from a re-analysis of the deposited data

Results flagged for a closer look

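TAGLN2 lay above every NT library in ZMAT5 and below every NT library in the libraries labelled ZFP36L1, a separation of 2.93 on the log2 scale between the arms. The difference between the arms was not tested, and both arms share the NT libraries.

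In BRCA1, S100A13 lay above every NT library of the same time at 2 h and below every NT library at 4 h, a separation of 1.16 on the log2 scale. The values were 88.9, 95.8 and 89.6 normalised CPM at 2 h and 39.7, 47.1 and 31.2 at 4 h. The difference between the times was not tested. Per 1e+06 mapped reads, the BRCA1 libraries of 4 h held 570384 to 622064 in counted intervals and those of 2 h 512695 to 581824. The part of that in these values was not tested.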

How the results depend on the processing

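Of 30 level calls of a member in an arm other than BRCA1, 8 passed under every alternative and 0 reversed. DESeq2 lost 0 of the 30, no low-count filter 1, leaving out multimapped reads 1, upper-quartile scaling 4, leaving out 8 h libraries 9 and 0 h libraries alone 22, the last with fewer samples. Member calls in BRCA1 are left out here, since that contrast guided the choice of members. Members called at 0 h alone were 0 in MAZ, PHF7, ZMAT3 and ZNF706, 2 in CNOT4, and 3 in ZMAT5 and the libraries labelled ZFP36L1. Without 8 h they were 2 in MAZ, 2 in ZMAT3 and 1 in ZNF706. Without 4 h, an alternative chosen after seeing the data, they were 0 in PHF7, and with upper-quartile scaling also 0 in PHF7. Leaving out each replicate number in turn gave 3 to 6 in CNOT4, 1 to 2 in MAZ, 0 to 2 in PHF7 and 5 to 7 in the libraries labelled ZFP36L1. It gave 2 to 3 in ZMAT3, 5 to 6 in ZMAT5 and 1 to 2 in ZNF706. At 0 h it gave 0 to 3 members with a label call in MAZ and 0 to 1 in ZMAT3. For label loss a CPM minimum of 20 gave 1 call in the libraries labelled ZFP36L1, and 0 h label relative to the pooled rate gave 0 in MAZ and ZMAT3. The cause was not tested.

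Replicate numbers did not pair arm libraries with NT libraries of the same time. Same-number correlations ran from -0.032 to 0.028 over 96 pairs, and 35 of 96 correlated best with their own number. Whether libraries of the same number and arm share a cell pool across chase times was not tested. With the replicate as a block, ANXA6 in ZMAT3 (-0.49, adjusted p = 0.056) and the 0 h label of ANXA2 in MAZ and S100A10 in ZMAT3 (leaving 1 call) did not pass, and no other member call changed. Over all genes, level calls ranged from 0 (0 h alone) to 54 (DESeq2) around 10 in BRCA1, 1463 to 4170 around 3387 in CNOT4, 71 to 1561 around 1087 in MAZ, 209 to 1919 around 958 in PHF7, 1671 to 6265 around 5107 in the libraries labelled ZFP36L1, 52 to 1717 around 1248 in ZMAT3, 107 to 1684 around 1222 in ZMAT5 and 54 to 979 around 661 in ZNF706. Label-loss calls ranged from 0 to 80 around 43 in ZMAT3 and 0 to 34 around 23 in PHF7, and 0 h label calls fell to 0 relative to the pooled rate from 2702 in MAZ, 2123 in ZMAT3 and 207 in ZMAT5. Of the recomputed half-lives 63 moved and 55 did not.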
